A study of Mus musculus with 7 samples.

Results

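The FoxO, AKT and TSC-mTOR axis was followed in muscle stem cells of young and geriatric mice through 8 genes: Foxo1, Foxo3, Foxo4, Akt1, Akt2, Tsc1, Tsc2 and Mtor. The genes were chosen by name, as every array probe other than a control whose gene name equals one of the 8 symbols. They were 8 of the 36406 gene names on the array and 8 of the 27392 features that were bright enough to be tested, and they were read by 13 probes of 55681. All 8 genes and all 13 probes could be tested, so none was lost to the filter on dim probes.

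Satellite cells, which are the stem cells of skeletal muscle, came from male C57BL/6 mice with no genetic change or treatment named in the labels. The young group held 3 arrays, from mice of 2, 2 and 3 months, and the geriatric group held 4 arrays, from mice of 28, 28, 29 and 30 months. Cells had been sorted as positive for integrin α7 and CD34 and negative for CD31, CD45, CD11b and Sca1. Before hybridisation to Agilent 1-colour arrays the RNA went through an amplification made for very few cells. The descriptions of geriatric replicates 1 and 2 give them 1 name. For 95.4% of probes their signals differed by less than 2 combined measurement errors, a share that was 59.6% to 67.0% in the other pairs of arrays, and their mean stands here for 1 sample. Each group therefore had 3 samples. The labels call the samples biological replicates without saying if a sample was 1 mouse or pooled mice, and p-values therefore rest on the spread among these samples alone.

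AKT is a protein kinase that insulin, IGF1 and other growth factors switch on through PI3K. Active AKT phosphorylates FoxO transcription factors, which then leave the nucleus, and it phosphorylates tuberin, the product of Tsc2, which relieves the brake that the TSC1-TSC2 complex puts on the small GTPase RHEB and so on mTOR complex 1. In satellite cells FoxO factors are known for maintaining quiescence, and mTORC1 activity for moving resting cells to an alert state. Most of this control acts on the proteins, by phosphorylation and location, and the arrays measured only RNA.

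None of the 8 genes differed between geriatric and young cells beyond the spread between samples. With limma over all features, 0 of 8 had a Benjamini-Hochberg adjusted p under 0.05 and 0 of 8 an unadjusted p under 0.05. In the same test 7 of 27392 features passed the adjusted threshold (0.0256%) and 1980 had an unadjusted p under 0.05 (7.23%). In 0 of 8 genes did the 3 geriatric samples lie all above or all below the 3 young samples, a pattern found in 12.8% of all features (7.18% with geriatric higher and 5.65% with geriatric lower). Of the 8 differences 4 were positive (Foxo1, Foxo3, Tsc1 and Tsc2) and 4 negative (Foxo4, Akt1, Akt2 and Mtor). Their median absolute size was 0.22 log2 units, beside 0.23 over all features tested. The values below are log2 signal minus the array's 75th percentile of signal, and differences are geriatric minus young on that scale, so that a difference of 1 is a doubling.

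**Figure D1:**
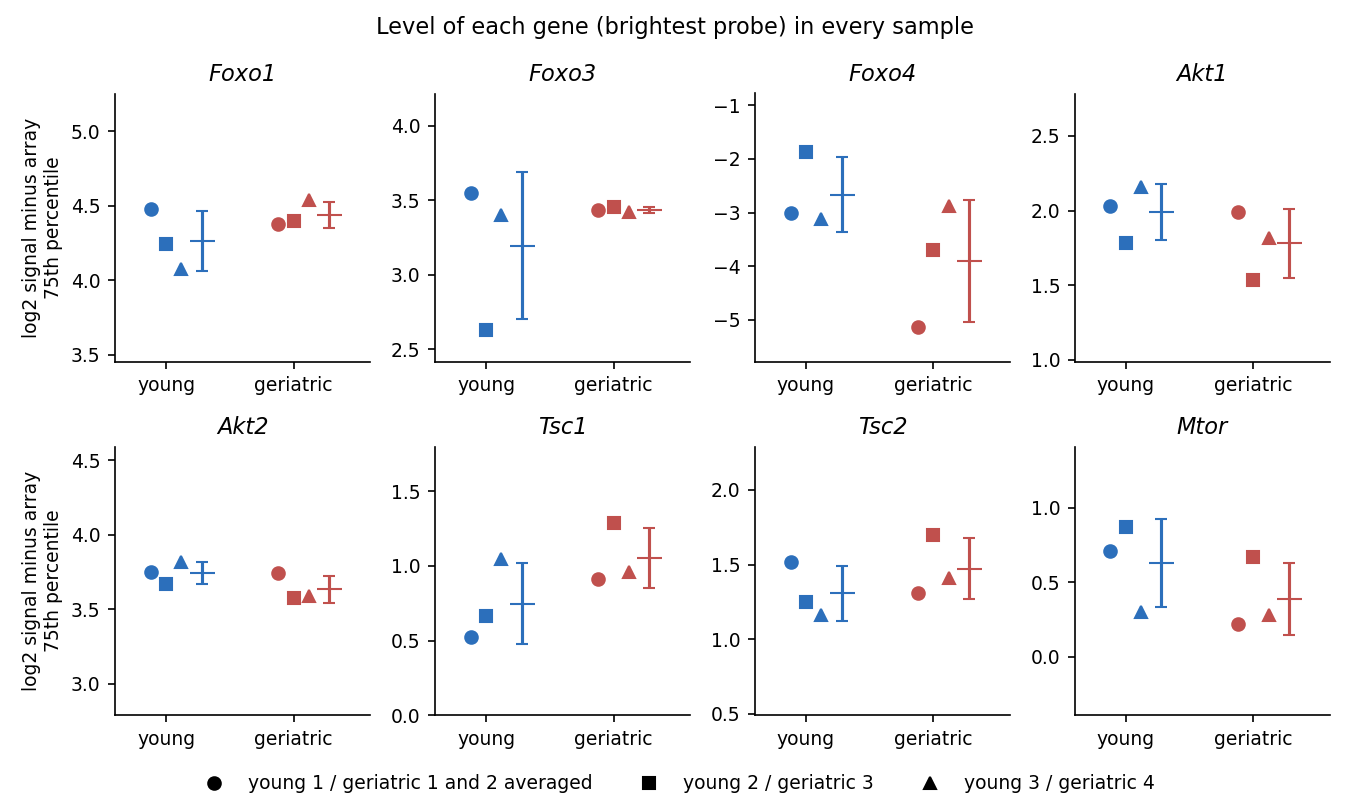
Level of each gene in every sample, as log2 signal of its brightest probe minus the array's 75th percentile; points are samples and the bars beside them give the mean and SD of 3 samples. The young and geriatric points overlap in every panel, and the panel of Foxo4 spans more log2 units than the others.

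The probes of Foxo3, Foxo4 and Akt2 carry the comparisons between probes given further on, and their first 30 of 60 bases are printed here 5′ to 3′ as the array files give them. Capitals mark bases that lie in another probe of the same gene, and lower case marks bases that do not. The Foxo4 probes share 52 bases and start 8 bases apart, and 2 of the Akt2 probes share 53 bases and start 7 bases apart, whereas the Foxo3 probes lie 61678 bases apart and the third Akt2 probe lies 6179 bases from the brightest. Positions refer to mm9, as in the array files. Which exon or untranslated region each probe lies in was not determined here.
Foxo3 A_55_P2150896: taaaagcagaaggaaggtgttatatcagtt
Foxo3 A_55_P2129309: gtctatagccaagttttgtagagccagtgg
Foxo4 A_55_P2113026: GCTAAGGATTGGTGGCAACACACTCAAGTG
Foxo4 A_55_P2150901: actttagaGCTAAGGATTGGTGGCAACACA
Akt2 A_55_P2066518: ctgctggCCTTTCCTTACTCCTCGTATTTG
Akt2 A_55_P2025228: CCTTTCCTTACTCCTCGTATTTGTACGGTA
Akt2 A_55_P2066523: gtatgccttccagacccatgaccgcctatg

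Foxo1, a FoxO factor that AKT keeps out of the nucleus, was read by its brightest probe at chr3:52150183-52150242 on the plus strand. Its level was 4.48, 4.24 and 4.07 in young samples 1, 2 and 3, and 4.38, 4.40 and 4.54 in the geriatric samples, in the order average of 1 and 2, then 3, then 4. Young 1 lay above 2 of the 3 geriatric samples, and the other young samples lay below all 3. The means were 4.27 ± 0.20 and 4.44 ± 0.09 (SD, n = 3 each). The difference was 0.17 with an interval from -0.26 to 0.61, a 1.13-fold ratio between 0.837 and 1.52 (limma adjusted p = 0.891). The dimmer Foxo1 probe, 3106 bases along at chr3:52153289-52153348, had 3.29, 3.28 and 3.06 in young and 2.88, 3.32 and 3.14 in geriatric samples. Its difference had the opposite sign, -0.09 (limma adjusted p over all tested probes = 0.952), and neither probe separated the groups.

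Foxo3, a second FoxO factor of the quiescence programme, was read by its brightest probe at chr10:41905610-41905669 on the minus strand. It stood at 3.55, 2.63 and 3.40 in young samples and at 3.44, 3.46 and 3.42 in geriatric samples. The geriatric samples were nearly level (SD 0.02), while young 2 lay far below the other young samples (SD 0.49). The difference was 0.24 with an interval from -0.43 to 0.92 (limma adjusted p = 0.904). Without young 2 it was -0.04, so the sign of the Foxo3 difference rested on that sample. The second Foxo3 probe, listed by the array design for a cDNA clone, at chr10:41967288-41967347, gave 0.46, 1.67 and -0.25 in young and 0.78, 0.61 and 0.62 in geriatric samples. Here young 2 was the highest sample in place of the lowest, and young 3 the lowest, while the geriatric samples again lay close together. That probe's difference was 0.04 with an SE of 0.49 (limma adjusted p = 0.992).

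Foxo4, the X-linked FoxO gene, had the largest difference of the 8 and the least precise one. Its brightest probe at chrX:98454974-98455033 on the plus strand was well above background on all 7 arrays but dim, at 178, 418 and 186 intensity units on the young arrays and 44.8, 41.1, 123 and 180 on geriatric arrays 1 to 4. On the log2 scale the young samples had -3.02, -1.87 and -3.12 and the geriatric samples -5.13, -3.69 and -2.88. Young 2 was the highest sample and the averaged geriatric sample the lowest, and geriatric 4 lay above young 1 and young 3, so the groups overlapped. The means were -2.67 ± 0.69 and -3.90 ± 1.14 (SD, n = 3 each). The difference was -1.23 with an SE of 0.65 and an interval from -2.83 to 0.37, a ratio of 0.426 that could lie between 0.14 and 1.29 (limma adjusted p = 0.760).

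The low values of geriatric 1 and 2 were repeated between their 2 arrays, which differed by 0.03 log2 units on the brightest Foxo4 probe. The overlapping probe at chrX:98454966-98455025 had -3.24, -2.11 and -3.36 in young and -5.98, -4.06 and -3.10 in geriatric samples. That probe shares most of its bases with the first and is no independent reading. It stood well above background on each of the 3 young arrays but on only 2 of the 4 geriatric ones, and geriatric arrays 1 and 2 differed by 0.51 on it. Its difference of -1.47 (limma adjusted p = 0.768) therefore rests in part on signals not well above background. The Foxo4 difference ran from -0.62 without geriatric 1 and 2 to -1.74 without geriatric 4, where the unadjusted p of limma was 0.0385 and the adjusted p 0.610. Without young 2 it was -0.83. Its size thus depended on single samples of both groups, while its sign stayed negative in each of these fits.

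**Figure D2:**
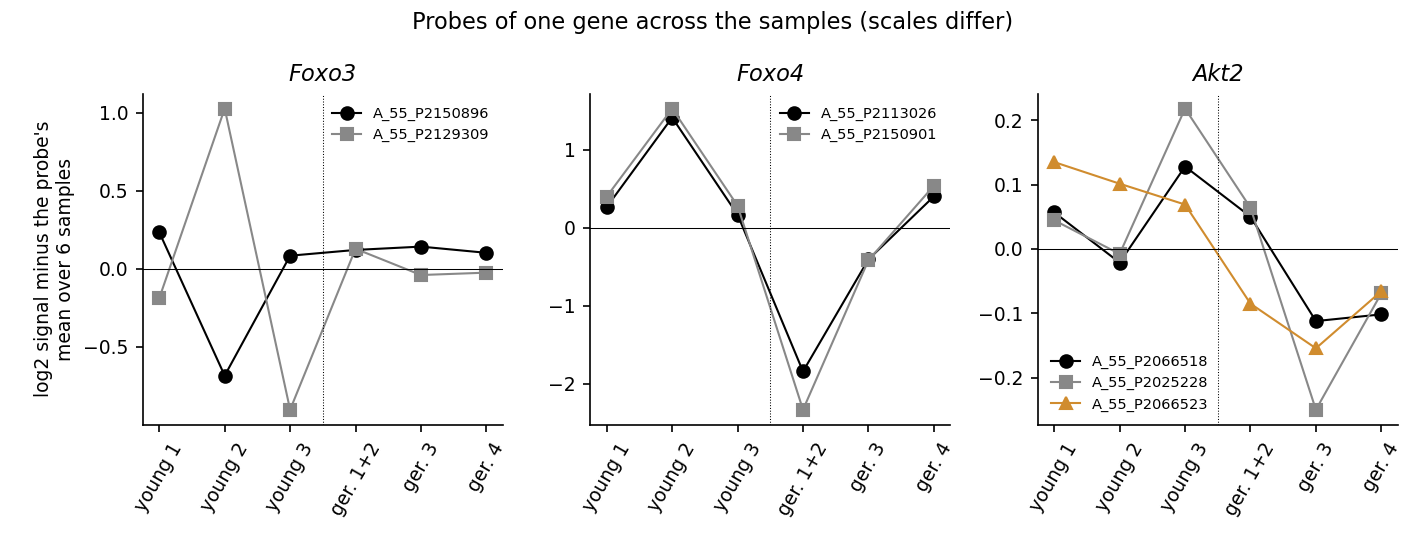
Signal of each probe of Foxo3, Foxo4 and Akt2 across the 6 samples, as log2 signal minus that probe's mean over the samples; lines only join the points of a probe, and the scales differ between panels. The Foxo3 probes differed in young 2 and young 3, the overlapping Foxo4 probes ran together, and one Akt2 probe had all 3 geriatric samples below all 3 young samples.

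Akt1, the kinase isoform found in most tissues, was read by its single probe at chr12:113892079-113892138 on the minus strand, spotted 2 times on each array. Young samples had 2.03, 1.78 and 2.16 and geriatric samples 1.99, 1.53 and 1.82. The highest value was in young 3 and the lowest in geriatric 3, with the rest interleaved. The difference was -0.21 with an interval from -0.70 to 0.28 (limma adjusted p = 0.884).

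Akt2, the isoform best known for insulin action on glucose uptake, was the steadiest of the 8 genes. Its brightest probe at chr7:28424405-28424464 on the plus strand had 3.75, 3.67 and 3.82 in young and 3.74, 3.58 and 3.59 in geriatric samples. Its SD within groups was lower than that of all but 2.4% of features. The means were 3.74 ± 0.07 and 3.63 ± 0.09 (SD, n = 3 each), and the difference was -0.11 with an interval from -0.48 to 0.26, a ratio between 0.716 and 1.20 (limma adjusted p = 0.921). The overlapping probe gave -0.17 (limma adjusted p over probes = 0.898). The distant probe at chr7:28418226-28418285 had 2.60, 2.56 and 2.53 in young and 2.38, 2.31 and 2.40 in geriatric samples. On that probe alone of the 13 the groups did not overlap, a pattern found in 12.8% of all features, each read by its brightest probe. Its difference was -0.20 with an SE of 0.16 and a limma adjusted p of 0.844 over all tested probes.

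Tsc1 encodes hamartin, which stabilises tuberin in the complex that restrains RHEB. Its probe at chr2:28546610-28546669 on the plus strand had 0.53, 0.66 and 1.05 in young and 0.91, 1.29 and 0.96 in geriatric samples. Young 1 and young 2 lay below all geriatric samples, and young 3 lay above 2 of them. The difference was 0.31 with an interval from -0.22 to 0.84 (limma adjusted p = 0.829).

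Tsc2 encodes tuberin, the GTPase-activating subunit that acts on RHEB. Its probe at chr17:24732882-24732941 on the minus strand had 1.51, 1.25 and 1.16 in young and 1.31, 1.70 and 1.41 in geriatric samples. Geriatric 3 was highest and young 3 lowest, and the groups overlapped. The difference was 0.16 with an interval from -0.31 to 0.64 (limma adjusted p = 0.908).

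Mtor, the kinase of both mTOR complexes, was read at chr4:147931250-147931309 on the plus strand. Young samples had 0.71, 0.87 and 0.30 and geriatric samples 0.22, 0.67 and 0.28. Young 3 lay with the low geriatric samples, and geriatric 3 lay with the high young ones. The difference was -0.24 with an interval from -0.80 to 0.33 (limma adjusted p = 0.885).

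**Figure D3:**
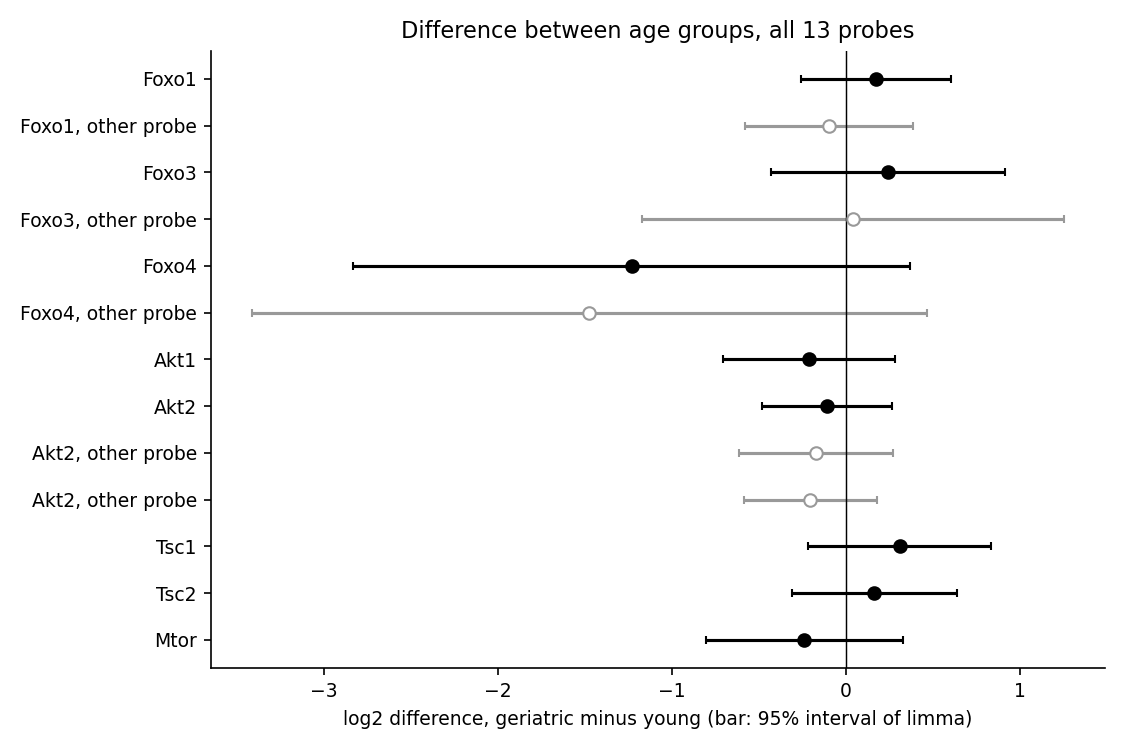
Geriatric minus young log2 difference of each of the 13 probes with its 95% interval from limma; filled points are the brightest probe of a gene and open points the others. Every interval includes 0, from the narrow bar of Akt2 to the wide bars of Foxo4.

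The intervals of the brightest probes set what these 6 samples could have shown. For Foxo1, Akt1, Akt2, Tsc1, Tsc2 and Mtor they excluded a doubling and a halving. For Foxo3 they did so only narrowly, and for Foxo4 a halving lay well inside the interval. The second Foxo3 probe was less precise, with an interval from -1.17 to 1.26 that held both a doubling and a halving.

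Leaving out 1 sample at a time moved most of these small differences by a large share of their size. Foxo1 ran from 0.08 without young 3 to 0.28 without young 1, and Tsc2 from 0.05 without geriatric 3 to 0.27 without young 1. Tsc1 ran from 0.19 without geriatric 3 to 0.46 without young 3. Akt1 ran from -0.32 without geriatric 1 and 2 to -0.09 without geriatric 3, Akt2 from -0.16 without geriatric 1 and 2 to -0.07 without young 3, and Mtor from -0.40 without young 3 to -0.12 without young 2. Foxo4, at -0.62 to -1.74, stayed the largest of the 8 in absolute size. The order of the others was not stable, with Foxo3 from -0.04 without young 2 to 0.42 without young 1.

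Ratios between related genes within a sample do not depend on the scaling between arrays. The log2 ratio of Foxo1 to Foxo3 was 0.93, 1.61 and 0.68 in young and 0.94, 0.94 and 1.12 in geriatric samples, a shift of -0.07 (exact permutation p = 1, 2-sided). The ratio of Foxo1 to Foxo4 shifted by 1.41 (exact permutation p = 0.2) and that of Foxo3 to Foxo4 by 1.47 (exact permutation p = 0.3). Akt1 to Akt2 shifted by -0.10 (exact permutation p = 0.5) and Tsc1 to Tsc2 by 0.14 (exact permutation p = 0.7). After Benjamini-Hochberg adjustment over the 5 ratios the lowest of these exact p-values was 0.75, and 3 samples against 3 cannot go below 0.10.

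The arrays lay on 1 slide in 2 rows, with all young arrays and geriatric 1 in row 1 and geriatric 2, 3 and 4 in row 2. Within row 1, or with the row as a block, only geriatric 1 stood against the young samples, and the differences were -2.47 for Foxo4, -0.36 for Mtor, 0.24 for Foxo3, 0.20 for Tsc1 and 0.08 for Foxo1. Those of Akt1 (0.01), Akt2 (0.02) and Tsc2 (-0.03) changed sign. With the row as a block, fitted on the 7 arrays, the SE was 0.33 for Mtor and 0.39 for Foxo3. In the same 7 arrays without the row it was 0.20 and 0.23, and in the fit of 6 samples 0.23 and 0.27. The limits on a doubling or a halving given above therefore refer to the fit of 6 samples without the row. For Foxo4 the unadjusted limma p within row 1 was 0.0181 and the adjusted p 0.403. With 1 geriatric array in that row, these p-values take its spread to be that of the young arrays, so they say little about geriatric samples.

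The sorted cells carried the satellite cell markers in both groups: all 10, among them Pax7 at 3.72 to 4.46, were well above background on every array, and their summed level was 7.16 to 7.45 in all samples. That sum follows mainly Chodl, at 5.72 to 6.07, and Cxcr4, at 4.63 to 5.12. Of the 10 markers 6 had higher and 4 lower geriatric means. Itga7, the gene of a sorting antigen, had 1.92 to 2.10 in young and 1.32 to 1.83 in geriatric samples, a difference of -0.44 (limma adjusted p = 0.703). Between 38044 and 41289 probes per array were well above background, and the 75th percentile of signal was 1330 to 1609 intensity units. The summed level of 7 fibro-adipogenic markers was 2.07 to 2.81 in young samples, 2.95 in the average of geriatric 1 and 2, 4.52 in geriatric 3 and 4.45 in geriatric 4, with Pdgfra well above background on no array. That sum follows mainly 1 probe, Dcn at 1.54 to 4.37. Of the 6 tested fibro-adipogenic markers 5 had higher geriatric means and 1, Col1a1, a lower one (-0.01). Ly6a is the gene of the Sca1 antigen sorted against. It stood at -3.16 and -2.47 in geriatric 3 and 4, above the young samples (-6.65 to -4.06). Lum had -2.72 and -1.86 there, also above its young values (-4.93 to -3.40). The average of geriatric 1 and 2 was low for both, at -6.52 for Ly6a and -6.13 for Lum. Both genes were well above background on only 2 of the 4 geriatric arrays. Dpt and Mfap5 were higher in all geriatric than in all young samples, the averaged one included, whereas Col1a1 was highest in the averaged geriatric sample (-0.68) and lowest in geriatric 4 (-2.08). Endothelial markers summed to 2.93 to 3.26 in young and 3.07 to 3.59 in geriatric samples, blood markers to 6.52 to 6.66 and 6.58 to 6.84, and myofibre markers to 4.11 to 4.29 and 3.89 to 4.52. The endothelial sum follows mainly Tek, at 2.70 to 3.46. Cdh5 was well above background on 2 geriatric arrays alone, at -4.56 in geriatric 3 and -4.27 in geriatric 4. In the averaged geriatric sample it was -7.83 and in young samples -8.14 to -7.04. Pecam1 was -0.86 in geriatric 4, -6.13 and -6.44 in the other geriatric samples and -5.92 to -2.90 in young samples. Kdr was near level, at -0.30 to 0.13. Lyz2 was well above background on no array, while Itgam, the gene of the CD11b antigen sorted against, was well above it on all arrays at 6.44 to 6.78 and makes up most of the blood sum. Cd14 ran from -5.07 to -4.16 in young and from -4.38 to -3.51 in geriatric samples. It had the largest difference, 0.81, of the 6 tested blood markers, of which 4 were higher and 2 lower. Ptprc, well above background on every array, had 0.38, Itgam 0.06, Csf1r -0.00 and Cd68 -0.53. Cd68 was well above background on only 2 of the 4 geriatric arrays. It stood at -7.12 in the averaged geriatric sample, but at -2.18 and -1.87 in geriatric 3 and 4, above the young samples (-3.48 to -2.81). The part of other cells in the values of the 8 genes was not tested, and in such bulk samples fewer cells of a type and less RNA per cell cannot be told apart.

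The rest of the pathway was read through 7 lists of 136 genes in all, and 0 of their tested genes passed the adjusted threshold of limma. Among the upstream PI3K-AKT genes 19 of 20 were tested (not Pik3cb), 11 with higher and 8 with lower geriatric means, and the median difference was 0.02, against a median of 0.00 over all features. Ppp2r5c, a regulatory subunit of the phosphatase PP2A, had -0.34 (limma adjusted p = 0.788), and Irs2, an adaptor of insulin and IGF1 receptors, 0.43 (limma adjusted p = 0.790). The other Ppp2r5c probes had -0.44 and -0.92, the same sign. With its probes averaged the Ppp2r5c difference was -0.57 (limma unadjusted p = 0.0117, adjusted p = 0.467).

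Of 22 genes whose products act on FoxO proteins or belong to the family, all were tested, with 11 higher and 11 lower and a median of -0.00. Foxo6, the remaining FoxO gene, had the smallest unadjusted p of all listed pathway genes. It stood at -2.29, -1.94 and -2.09 in young and at -0.98, -1.62 and -1.24 in geriatric samples, every geriatric sample above every young one. The difference was 0.83 with an SE of 0.22 (limma unadjusted p = 0.0104, adjusted p = 0.485), 1.10 within row 1, and 0.44 on the other Foxo6 probe. Foxo6 and Foxo4 therefore had differences of opposite sign, neither past the threshold. Ywhab, a 14-3-3 protein of the kind that binds phosphorylated FoxO, had 2.25, 2.16 and 2.30 in young and 1.82, 1.83 and 1.90 in geriatric samples, a difference of -0.39 with an SE of 0.15 (limma unadjusted p = 0.0394, adjusted p = 0.654). Mapk8, the kinase JNK1, had -0.37 (limma adjusted p = 0.775), and -0.41 and -0.22 on its other probes.

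Of 21 known FoxO target genes 18 were tested (not Trim63, Igfbp1 or Pck1), 6 higher and 12 lower, with a median of -0.06 that was 0.05 without geriatric 4 and 0.11 without geriatric 1 and 2. Klf2, a FoxO target and a transcription factor of quiescent lymphocytes and endothelium, had 2.29, 2.82 and 1.57 in young and 2.89, 3.96 and 3.78 in geriatric samples. The groups did not overlap, although young 2 and the averaged geriatric sample were close. The difference was 1.32 with an SE of 0.43 (limma unadjusted p = 0.0227, adjusted p = 0.585), and 0.68 within row 1. The high Klf2 samples, geriatric 3 and 4, were those with high Dcn, a high fibro-adipogenic sum and the highest Cdh5. Other endothelial markers did not follow Klf2 in geriatric 3. Pecam1, Emcn and Vwf were lowest of all samples there (-6.44, -5.48 and -4.66) and highest in geriatric 4 (-0.86, -2.23 and -2.14). Tek was highest in the averaged geriatric sample (3.46). The part of the cells of those markers in the Klf2 values was not tested. Pdk4, which restrains pyruvate oxidation, had a difference of the other sign, at 1.25, 0.79 and 0.66 in young and -0.26, 0.33 and 0.51 in geriatric samples, a difference of -0.71 with an SE of 0.28 (limma unadjusted p = 0.0462, adjusted p = 0.679) and of -1.17 within row 1. G6pc, the gluconeogenic phosphatase, was dim in all samples, with a difference of 0.50 (limma adjusted p = 0.723). Fbxo32, the atrophy ubiquitin ligase, and Bcl2l11, the apoptosis gene BIM, had -0.05 and -0.00.

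The 12 genes of the mTOR complexes and their core partners were all tested, 4 higher and 8 lower, with a median of -0.14 that was -0.41 without young 2 and also without geriatric 4. Mlst8, a subunit of both complexes, had 2.03, 1.92 and 2.21 in young and 1.61, 1.53 and 1.88 in geriatric samples. The groups did not overlap, and the difference was -0.38 with an SE of 0.18 (limma adjusted p = 0.736). Mapkap1, which encodes the mTORC2 subunit SIN1, had -1.05 (limma adjusted p = 0.778) but -0.15 on its other probe. Prr5l, an mTORC2 partner, had -1.49 and was well above background on 2 young arrays and 1 geriatric array. Rptor, the defining subunit of mTORC1, had -0.32 and Rictor, that of mTORC2, 0.37.

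Of 27 nutrient-sensing genes upstream of mTORC1, 15 were higher and 12 lower, with a median of 0.03. That median was -0.06 with all probes of a gene averaged, -0.05 without young 2 and -0.04 without geriatric 4. With arrays scaled by their medians it was -0.06, where the median of all features was -0.09. The 3 with the smallest p, none past the threshold, had all geriatric samples below the young ones, which holds for 5.65% of all features. They are subunits of GATOR1 and GATOR2, which relay amino acid supply to the Rag GTPases, and were picked by their p. Wdr59 of GATOR2 had -0.62 with an SE of 0.28 (limma adjusted p = 0.719), Depdc5 of GATOR1 -0.40 with an SE of 0.20 (limma adjusted p = 0.758) and Wdr24 of GATOR2 -0.31 with an SE of 0.17 (limma adjusted p = 0.781). The other 3 Depdc5 probes had 0.10, -0.08 and -0.05. Other subunits did not all share their sign: Nprl2 and Nprl3, which partner Depdc5 in GATOR1, had 0.39 and 0.03, and Seh1l and Sec13 of GATOR2 had 0.14 and 0.07, while Mios of GATOR2 had -0.39.

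Of 16 mTOR effectors 5 were higher and 11 lower, with a median of -0.06, which was -0.29 within row 1. Larp1, which binds messengers of ribosomal proteins, had -0.40 (limma adjusted p = 0.772), the cap-binding factor Eif4e -0.33 (limma adjusted p = 0.807) and the helicase cofactor Eif4b -0.33 (limma adjusted p = 0.835). Other probes of Larp1 and Eif4e had 0.18 and 0.16, the opposite sign, whereas those of Eif4b had -0.20 and -0.16, the same sign. The S6 kinases were near 0, with 0.01 for Rps6kb1 and 0.04 for Rps6kb2.

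Of 18 genes whose transcription mTORC1 is known to drive 17 were tested (not Slc7a11), 6 higher and 11 lower, with a median of -0.13 that was 0.01 without geriatric 4. Ppargc1a, the mitochondrial coactivator, had -0.63, -0.91 and -3.90 in young and 0.83, 0.57 and -0.65 in geriatric samples. The difference of 2.06 had an SE of 0.95 (limma adjusted p = 0.731); young 3 lay far below the other samples. Psat1, of serine synthesis, had -0.60 (limma adjusted p = 0.748) with no overlap between groups, and -0.34 on its other probe. Asns, asparagine synthetase, had -1.35 and was well above background on 2 young arrays and 1 geriatric array. Srebf1 and Scd1, of lipid synthesis, had -0.01 and -0.02.

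**Figure D4:**
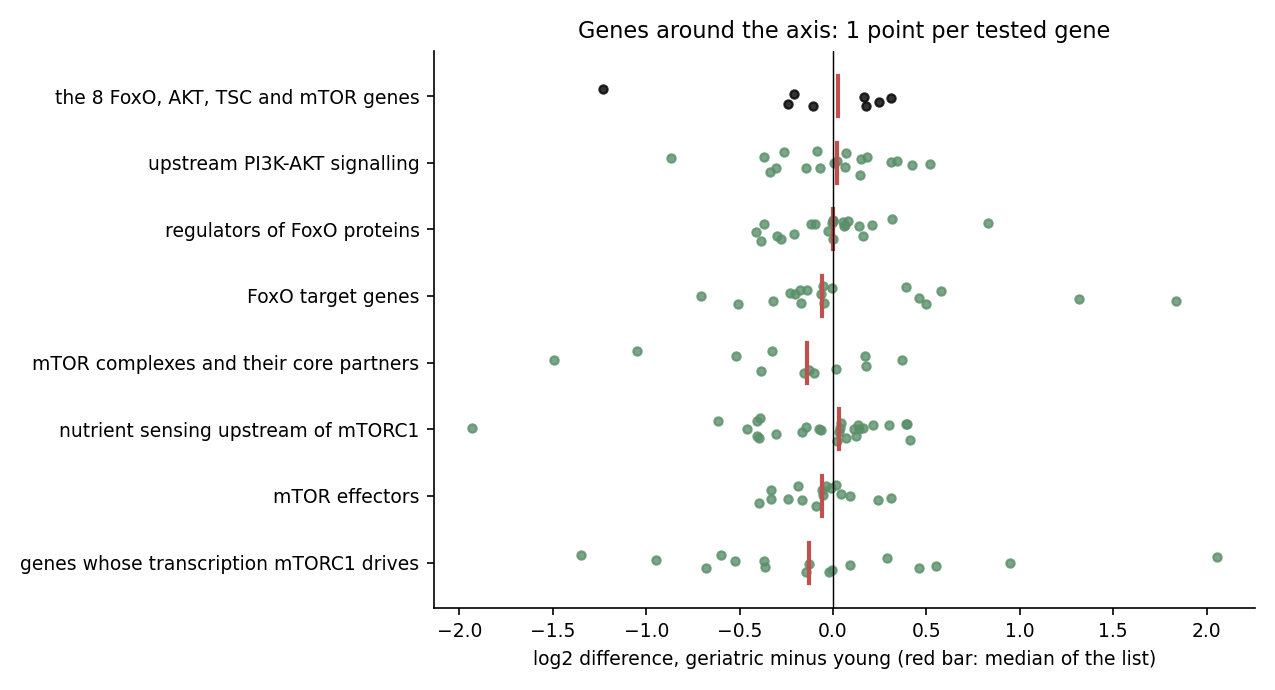
Geriatric minus young log2 difference of every tested gene of the 8 and of the 7 lists around them, 1 point per gene, with a red bar at the median. All medians lie between -0.14 and 0.03, and the widest single values come from genes such as Ppargc1a at 2.06.

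The genes whose profiles over the 6 samples were most like each of the 8 were found among 13186 named genes, by the root mean square difference of gene-centred log2 values. For Foxo1 they were Kcnip3 (0.0454) and Hmox2 (0.0483), for Foxo3 Zdhhc9 (0.0554) and Mtmr9 (0.0629), and for Foxo4 Awat2 (0.147) and Itga10 (0.235). For Akt1 they were Trim11 (0.0402) and Brwd1 (0.0571), and for Akt2 Phpt1 (0.0333) and Foxn3 (0.0365). For Tsc1 they were Golim4 (0.0423) and Igsf9b (0.0473), for Tsc2 Tuba3a (0.0557) and Tcf25 (0.0605), and for Mtor Cldnd1 (0.0723) and Lrrc19 (0.0796). Flat profiles had many neighbours, with 256 genes within 0.1 of Akt2 and 122 within 0.1 of Foxo1. Foxo4 had 0 and Foxo3 had 4 genes within that distance.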

How the data were processed

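RNA of sorted satellite cells was measured on 7 Agilent arrays in 2 age groups. Spot intensity values were made with Feature Extraction 10.7.3.1, with detrending and surrogate values near background, per the file headers. The authors' deposited value table holds log2 values of unknown background correction and was used as an alternative. From the deposited intensity columns, the log2 processed signal was taken relative to the 75th percentile of its array, control and outlier spots were left out, and spots of a probe were averaged. Probes well above background on at least 3 of 7 arrays were tested, which left 41250, and the brightest of these stood for each gene. Gene names are those of the array design.

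Geriatric and young samples were compared in a 2-sided test of limma 3.58.1 (functions lmFit and eBayes), with Benjamini-Hochberg adjustment over every tested feature and a threshold of 0.05, in R 4.3.3 with version 1.17.8 of the data.table package, after a check on simulated data. Figures used matplotlib 3.10.9 in Python 3.11.15. Named were the 8 genes, the 3 genes of each list with the smallest p, and the 2 nearest profiles of each gene. One gene that the rule names is not reported here. Rptor, Rictor, Nprl2, Nprl3, Seh1l, Sec13, Mios, Fbxo32, Bcl2l11, Rps6kb1, Rps6kb2, Srebf1 and Scd1 were named after their values were seen. The genes and lists were chosen with earlier results of these data known. The sample descriptions number the averaged geriatric sample 1, geriatric 3 as 2 and geriatric 4 as 3. No pairing of young and geriatric samples by these numbers was assumed. The correlations of same numbers were -0.04, 0.03 and 0.04, and those of unlike numbers ran from -0.11 to 0.08. With 3 samples in each group such values cannot exclude a pairing.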

Additional observations from a re-analysis of the deposited data

How the results depend on the processing

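Under all 20 alternatives 0 of the 8 genes passed the adjusted threshold of limma, with an unadjusted p under 0.05 for 1 of them, Foxo4, under 4 (all 7 arrays as samples, the row block, row 1 alone, without geriatric 4). Foxo1, Foxo4, Tsc1 and Mtor kept their sign under all 20. Foxo3 ran from -0.037 to 0.42 when samples were left out. With the slide row as a block, or within row 1, Akt1 (0.0096), Akt2 (0.019), Tsc2 (-0.032) and Irs2 (-0.0093) reversed. The count over all features, 7, became 4 with normexp, 4 with the authors' values, 2 with probes well above background on all arrays, 64 with 7 arrays as samples, 3 within row 1, 17 with a variance trend and 0 with the row block (1633 at an unadjusted p under 0.05), and ran from 0 (without young 1, young 2 or geriatric 4, with 1622, 2146 and 2114 at an unadjusted p under 0.05) to 8 when samples were left out. With the number in the sample descriptions as a block it was 0 (2075 at an unadjusted p under 0.05), and no call among the 8 genes changed. Of the 8 genes, those whose groups did not overlap numbered 1 with quantile normalization (Foxo1, beside 12.7% of all features) and 1 with the authors' values (Foxo1, beside 12.8%). They numbered 1 with all probes of a gene averaged (Akt2, beside 13%) and 2 within row 1 (Foxo4 and Mtor, where 56.6% of features did not overlap). When samples were left out they numbered 0 to 3, with 21.6% to 25.1% of features at 1 or more. The causes were not tested. Alternatives for the pathway lists and their named genes were added after seeing the data. Scaling by array medians moved the median of all features to -0.09 and that of the FoxO targets to -0.15. The fit with 7 arrays as samples counted geriatric 1 and 2, taken elsewhere as 1 sample, as independent samples. Its 64 calls and its p-value for Foxo4 therefore treat arrays of 1 sample name as replicates. The number of arrays limits the precision.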

Other observations

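Promoter windows of RefSeq genes (GRCm38.p6, 250 bases before to 50 after a start) were searched on both strands for GTAAACA, the core of the motif that FoxO and other forkhead factors bind. It was found in 1199 of 32851 windows (3.65%) and 1095 of 27025 genes (4.05%). Of the 8 genes, 7 had windows and 1, Akt1, held the letters in 1 of 11 windows. Of 20 FoxO targets with windows 3 held it: Bcl2l11, Mxi1 and Trim63. Bcl2l11 had a geriatric minus young difference of -0.00 and Mxi1 of -0.51 (limma adjusted p above 0.05 for both), and Trim63 was too dim to test. A match of letters is a description of the window and no site of binding.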
